A study of Mus musculus with 9 samples.

Results

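The collagen chain genes are described here in mature megakaryocytes (mMKs) of mice before and after ionizing radiation (IR). They were taken as every non-control probe whose gene name on the array is Col, a number, the letter a and a number. A probe was kept when the scanner software marked it well above background on the 3 arrays of at least 1 group. Of 91 such probes for 44 chains, 65 probes for 39 chains passed, among 44300 probes that passed of 56585 on the array. The 9 samples were bone marrow MKs of male mice, sorted as mMKs, each hybridised to its own 1-colour Agilent array. Ctrl mice received no IR and, by the paper's methods, were sham-irradiated. The other mice received 5 Gy of γ-rays and were sampled 1 day (1 dpi) or 3 days (3 dpi) later. Each group had 3 arrays from different donors. Strain and age are not given in the labels of these samples. The number of arrays limits the precision of every value given here.

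Collagens are triple-helical proteins of the extracellular matrix, built from chains in which glycine recurs at a fixed step along the helix. Fibrillar collagens form the banded fibres of bone, tendon and stroma, network collagens form the sheets of basement membranes and hexagonal lattices, FACIT collagens sit on the surface of fibrils, and beaded type VI collagen forms fine filaments around cells. In bone marrow, collagen fibres and basement membranes surround the sinusoids near which MKs lie, and platelets bind collagen where a vessel is damaged. Stromal cells, osteoblasts and endothelial cells are known makers of marrow collagen.

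Each value is the log2 signal of a probe relative to the 75th percentile of its array, so that 0 stands for a probe at that percentile. A probe was called when limma gave an adjusted p under 0.05 over all probes tested and the groups differed at least 2-fold, and "rose" and "fell" are used of called probes. The share of spots well above background was 69.07% on the array of Ctrl replicate 1, and 79.45% and 80.79% on those of Ctrl replicates 2 and 3. It was 72.31%, 74.81% and 75.59% at 1 dpi and 81.76%, 81.63% and 81.84% at 3 dpi. Ctrl replicate 1 stood apart: it lay on slide 1 from scan 1, while the other 8 arrays lay on slide 2 from scan 2, and its correlation with the other Ctrl arrays across all probes was 0.986, against 0.997 between those. A fit with the slide as a block is the same as leaving this array out, and the counts of the collagens and of the lists are given with and without it. The median difference of all probes tested was 0.22 at 1 dpi, 0.07 at 3 dpi and -0.13 for 3 dpi against 1 dpi, so medians of the collagens are also given relative to these values.

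MK markers were read first, and their presence does not show how pure the samples were. All 12 genes of the list passed the filter, with Pf4, the platelet factor made by MKs, the brightest of them. Its change was 0.09 at 1 dpi and 0.01 at 3 dpi, and that of Itga2b, the αIIb chain of the platelet fibrinogen receptor, was 0.69 and -0.03. The linear signals of the list summed to 122.9, 111 and 109.8 times the 75th percentile in Ctrl, 124.7, 113.9 and 112.2 at 1 dpi, and 131.1, 129.8 and 128.3 at 3 dpi. On the same scale the 8 neutrophil markers described below summed to between 997 and 1798, and the 7 erythroid markers to between 33.07 and 245.2. The 9 stromal markers summed to between 5.588 and 46.33. Sums of different genes do not give shares of cells. By limma 0 of the 12 genes were called in each of the 3 comparisons. At an unadjusted p under 0.05, limma gave 3 up and 3 down for 1 dpi, 5 up and 0 down for 3 dpi, and 7 up and 1 down for 3 against 1 dpi. The methods' t-test had 3 and 2, 5 and 0, and 8 and 1.

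More collagen probes rose than fell after IR at each time, and 37 of the 65 were not called at 1 dpi and 36 at 3 dpi. At 1 dpi, 27 of the 65 probes, from 19 chains, rose and 1 fell, where 11.6% of all probes tested rose and 3.02% fell. At 3 dpi, 29 probes from 20 chains rose, where 6.58% of all probes rose and 1.86% fell. No collagen probe fell at 3 dpi by limma, and 0 were lower at an unadjusted p under 0.05 by limma or by the methods' t-test. The median change of the 65 probes was 0.85 at 1 dpi and 0.85 at 3 dpi, or 0.63 and 0.78 above the median of all probes. With median scaling it was 0.54 and 0.73, with quantile normalization 0.44 and 0.57, with normexp background correction and the 75th percentile 0.88 and 0.32, and with normexp and quantile normalization 0.16 and 0.25. Before scaling the 75th percentile was 9.33 to 9.45 at 1 dpi, against 10.03 to 10.66 in Ctrl and 10.37 to 10.55 at 3 dpi. Col6a5 A_52_P387884, well above background on no array, had scaled means of -8.90, -8.10 and -9.12 in Ctrl, 1 dpi and 3 dpi. Col12a1 A_52_P378736, likewise dim, had -8.86, -8.06 and -9.08, and Col4a6 A_52_P516409 -6.97, -7.05 and -7.82. The part of such floor values in the medians that involve 1 dpi was not tested. In 45 probes the 3 arrays at 1 dpi lay above the 3 Ctrl arrays, where 41.7% of all probes tested did so, and in 42 probes those at 3 dpi did, against 24.4%. In bulk RNA such as this, more cells of a type and more RNA per cell, or fewer and less, cannot be told apart.

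These counts and medians describe the probes that passed and are no support for a direction. Of the 65 probes, 39 were well above background on every array, 23 were so on fewer than 3 Ctrl arrays, 10 passed through the 3 dpi arrays alone and 1 through the 1 dpi arrays alone, and a probe that passes through 1 group alone tends by that choice to read high there. None passed through Ctrl alone. Without Ctrl replicate 1, 21 probes rose and 1 fell at 1 dpi, and 26 rose at 3 dpi. Among the 39 probes well above background on every array, 16 rose at 1 dpi and 17 at 3 dpi, where 9.5% and 4.64% of all such probes rose. Both comparisons share the Ctrl arrays, so their values are set side by side with no correlation between them.

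Called probes are given here by class, where 11.6% of all probes tested rose at 1 dpi and 6.58% at 3 dpi. Fibrillar chains had 10 of 22 probes higher at 1 dpi and 14 at 3 dpi, network chains 5 of 9 at each time, and beaded chains 6 of 8 at each time. FACIT chains had 4 of 13 probes higher at 1 dpi and 2 at 3 dpi, and the other chains had 2 of 13 at each time. The median change at 1 dpi was 1.00 for fibrillar, 1.20 for network, 0.74 for FACIT, 1.63 for beaded and 0.69 for other chains. At 3 dpi it was 1.60, 1.25, 0.35, 1.94 and 0.16 in the same order. Relative to the median of all probes these values were 0.78, 0.98, 0.52, 1.41 and 0.47 at 1 dpi, and 1.53, 1.18, 0.28, 1.87 and 0.09 at 3 dpi. No test was made between classes. Without Ctrl replicate 1 the class medians at 1 dpi were 0.87, 0.81, 0.68, 1.69 and 0.49. At 3 dpi they were then 1.25, 1.15, 0.32, 2.07 and 0.03. With normexp background correction and the 75th percentile the medians at 3 dpi shrank to 0.58 for fibrillar, 0.38 for network, 0.07 for FACIT, 0.38 for beaded and 0.06 for other chains. With normexp and quantile normalization they were 0.53, 0.32, 0.07, 0.30 and 0.01 at 3 dpi, and 0.15, 0.18, 0.18, 0.40 and 0.12 at 1 dpi. Quantile normalization alone gave 0.61, 0.65, 0.44, 1.14 and 0.30 at 1 dpi.

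**Figure D1:**
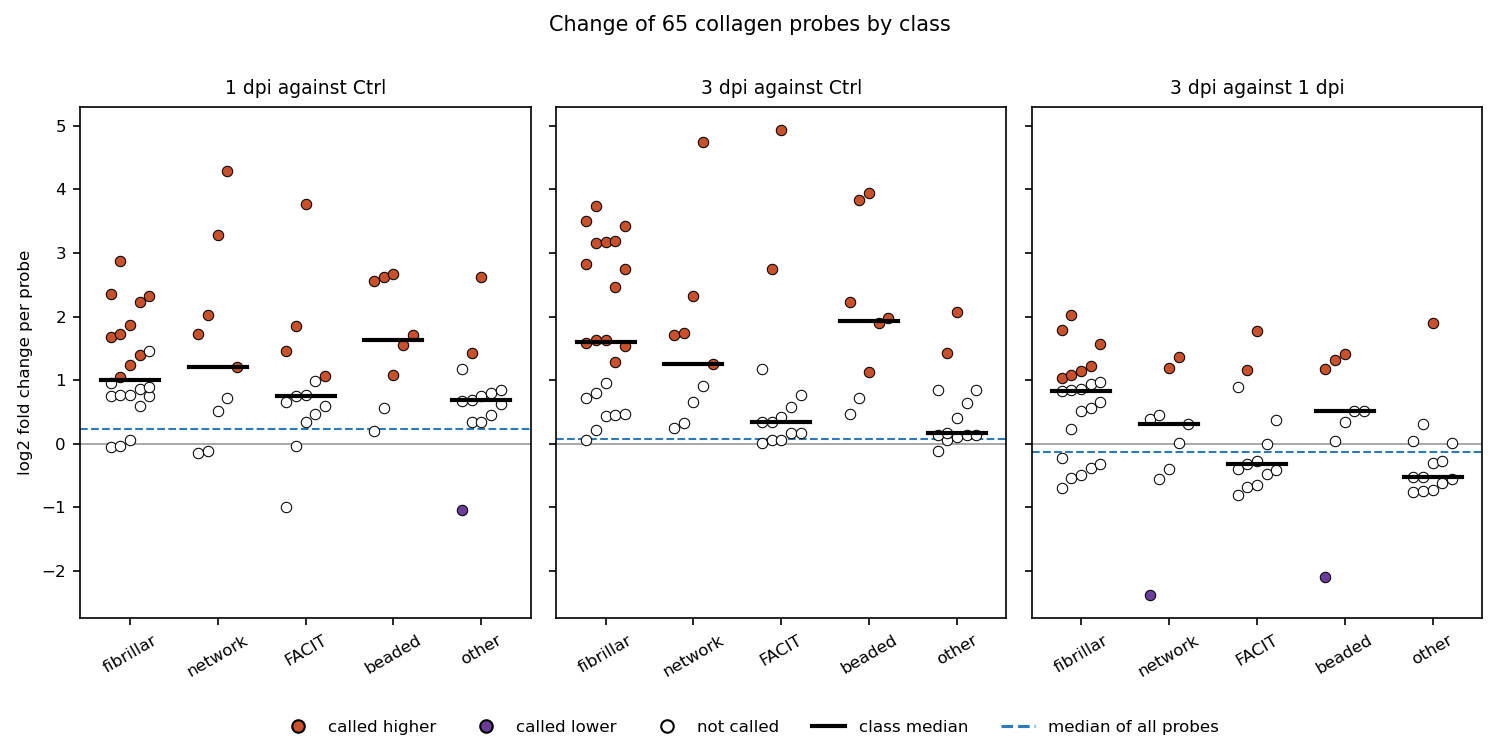
Change of each passing collagen probe by class (log2 difference on the vertical axis) in the 3 comparisons, with called probes marked and the class median drawn as a line. The median of the beaded chains was 1.63 at 1 dpi and 1.94 at 3 dpi, and that of the FACIT chains 0.74 and 0.35.

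Some probes were not well above background on any array of a group, and there a bound on the fold is given. It sets the mean of the bright group against a floor for the dim group, the mean over its arrays of the higher of the probe's own value and that array's faintest value of a probe well above background. A pair of groups that are both dim, or whose bound is under 1, gets no fold. Class medians were also taken with such probes at their bound, or at 0 where it was under 1, and without probes dim in both groups. At 1 dpi they were 1.15 for fibrillar, 1.28 for network, 0.74 for FACIT, 1.71 for beaded and 0.69 for other chains. Those of fibrillar, network and beaded chains then rest on 20 of 22, 8 of 9 and 7 of 8 probes. No fibrillar probe was at a bound at 1 dpi, so that median moved only because probes were left out. At 3 dpi the medians were 1.44, 1.23 (8 of 9 probes), 0.35, 1.24 and 0.16.

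The chains of type I collagen, the main fibre of bone and stroma, rose at both times. Col1a1 encodes its α1 chain, and the brightest probe (A_52_P525107, mm9 chr11:94813075-94813134) read 0.93, 0.78 and 0.89 in Ctrl, 3.15, 3.02 and 3.10 at 1 dpi, and 4.04, 3.96 and 4.05 at 3 dpi. The groups did not overlap, and the spread within each was small beside the differences. The change was 2.22 ± 0.07 (SE, n = 3 arrays a group; limma adjusted p = 7.1e-07) at 1 dpi and 3.15 ± 0.07 (limma adjusted p = 2.0e-07) at 3 dpi, or 4.67-fold and 8.91-fold. Col1a2 encodes the α2 chain, and its brightest probe (A_51_P182303, mm9 chr6:4490619-4490678) read 1.33, 1.41 and 1.52 in Ctrl, 3.93, 3.64 and 3.77 at 1 dpi, and 5.02, 4.81 and 4.94 at 3 dpi. Its change was 2.36 ± 0.10 at 1 dpi and 3.50 ± 0.10 at 3 dpi (limma adjusted p = 2.3e-06 and 3.7e-07), and each array at 3 dpi lay above each at 1 dpi.

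Type III collagen, the reticular fibre that runs with type I in marrow, rose at both times and further at the later one. Its single chain, Col3a1, read -3.46, -3.76 and -3.65 in Ctrl, -1.83, -2.11 and -1.76 at 1 dpi, and 0.56, -0.09 and -0.12 at 3 dpi by probe A_51_P515605 (mm9 chr1:45405589-45405648). Those 3 groups did not overlap. The change was 1.72 ± 0.19 at 1 dpi and 3.74 ± 0.19 at 3 dpi (limma adjusted p = 2.4e-04 and 5.7e-06), 3.30-fold and 13.4-fold, and the latter had the highest value of the fibrillar probes. Its other passing probe (A_55_P2717459) was well above background on no Ctrl or 1 dpi array and on 3 at 3 dpi. By its bound it was at least 1.14-fold higher at 3 dpi than in Ctrl. The limma adjusted p of 0.016 belongs to the plain difference of 1.54 and does not test the bound. The probe passed through the 3 dpi arrays alone, so its p-value is no support for a direction. Without 3 dpi replicate 1 this probe was not called (limma adjusted p = 0.054).

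Chains of the minor fibrillar collagens, which join type I or cartilage fibrils, split into those that rose and those not called. Col5a2, a chain of the type V collagen that starts fibrils, changed by 1.86 and 2.83 at 1 and 3 dpi on its brighter probe (A_55_P2104894). Its call at 1 dpi was lost with normexp and quantile normalization (0.32) and that at 3 dpi with normexp under either scaling (lowest 0.84). Col11a1, a chain of type XI collagen of cartilage fibrils, changed by 1.68 and 2.75 by probe A_51_P459477, with no call at 1 dpi under normexp and quantile normalization (0.84). Col2a1, the chain of the main cartilage collagen, was not called at 1 dpi (0.59) and rose at 3 dpi (1.62), a call lost with normexp and quantile normalization (0.93) and with a test against 1.5-fold (treat). Col27a1, a cartilage collagen, was well above background on no Ctrl or 1 dpi array by probe A_52_P480088 and was at least 1.54-fold higher at 3 dpi. That call was lost without any of 7 arrays, with limma adjusted p from 0.052 to 0.134. The brightest passing probe of Col27a1 (A_52_P628870) was not called in any comparison, with -0.03 at 1 dpi and 0.79 at 3 dpi. Its Ctrl arrays read -7.00, -5.46 and -5.43, so both values depend on Ctrl replicate 1, the lowest. The call of the dimmer Col11a1 probe (A_52_P507877) at 1 dpi was lost without Ctrl replicate 1, Ctrl replicate 3 or 1 dpi replicate 2, with differences of 0.96, 0.93 and 0.94. With normexp and the 75th percentile 8 fibrillar probes rose at 1 dpi and 8 at 3 dpi, with normexp and quantile normalization 5 and 7, and without Ctrl replicate 1 it was 9 and 13.

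No fibrillar probe fell against Ctrl by limma, and 0 were lower at an unadjusted p under 0.05 by limma or by the methods' t-test. Col5a1, Col5a3, Col11a2 and Col24a1 had no called probe in any comparison. Col5a1, the other main chain of type V collagen, read -0.70, -0.76 and -0.79 in Ctrl, 0.19, 0.13 and 0.29 at 1 dpi, and 0.02, -0.09 and -0.02 at 3 dpi. Its differences of 0.95 and 0.72 passed the adjusted p (2.8e-05 and 1.3e-04 by limma) and were under 2-fold. The changes of Col5a3, Col11a2 and Col24a1 ranged from -0.05 to 1.45 at 1 dpi and from 0.06 to 0.95 at 3 dpi. Both upper ends are those of Col24a1. Its Ctrl arrays read -8.47, -5.60 and -5.68, so these ends depend on Ctrl replicate 1, the lowest.

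**Figure D2:**
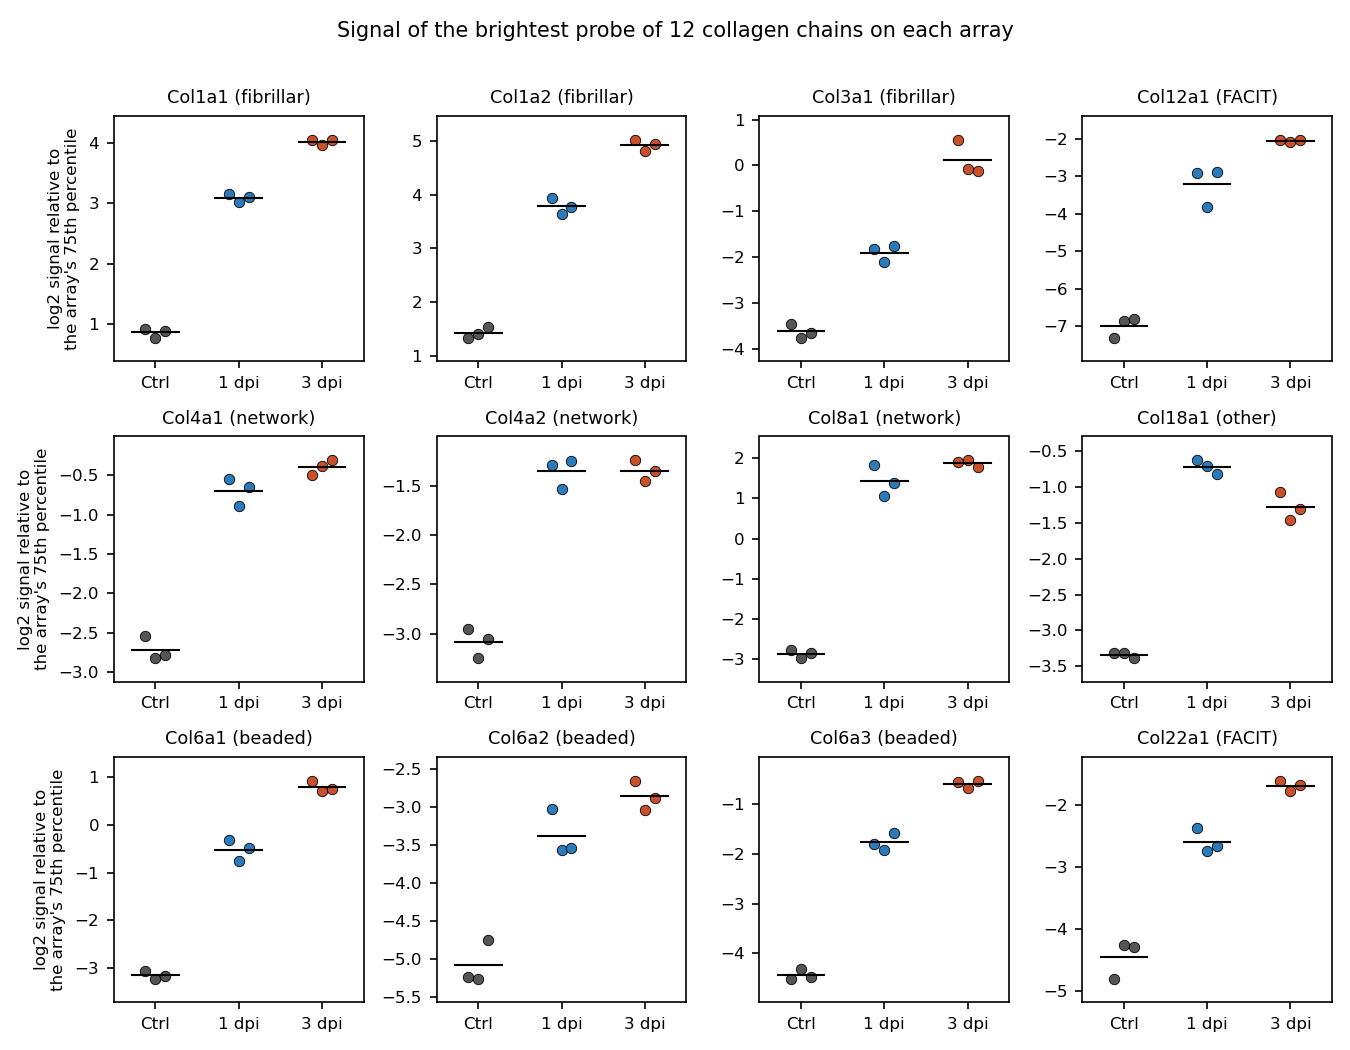
Log2 signal relative to the 75th percentile of the array (vertical axis) for the brightest probe of named collagen chains on the 9 arrays, points for arrays and lines for group means. Col1a1 lay between 0.78 and 0.93 in Ctrl and between 3.96 and 4.05 at 3 dpi, with 1 dpi between them.

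Type IV collagen, the sheet of basement membranes, rose through its ubiquitous chains. Col4a1 (A_51_P124254, mm9 chr8:11199009-11199068) read -2.54, -2.83 and -2.79 in Ctrl, -0.55, -0.89 and -0.65 at 1 dpi, and -0.49, -0.39 and -0.31 at 3 dpi. Col4a2 (A_51_P491350, mm9 chr8:11448840-11448899) read -2.95, -3.25 and -3.05 in Ctrl, -1.29, -1.53 and -1.25 at 1 dpi, and -1.24, -1.45 and -1.35 at 3 dpi. For both chains the arrays after IR lay above those of Ctrl. The changes of Col4a1 were 2.02 ± 0.12 and 2.32 ± 0.12 (limma adjusted p = 9.5e-06 and 4.6e-06). Those of Col4a2 were 1.73 ± 0.11 and 1.74 ± 0.11 (limma adjusted p = 1.8e-05 and 1.8e-05).

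Col4a4, a chain of the specialised basement membrane of the kidney and inner ear, was seen at 1 dpi alone. Its passing probe (A_66_P102765, mm9 chr1:82448113-82448172) read -8.47, -7.99 and -9.09 in Ctrl, -4.73, -5.51 and -5.44 at 1 dpi, and -7.00, -6.82 and -8.99 at 3 dpi. It was well above background on 3 arrays at 1 dpi and on none of the others. By its bounds it was at least 2.58-fold higher at 1 dpi than in Ctrl and at least 2.99-fold lower at 3 dpi than at 1 dpi. The limma adjusted p of 0.0022 and 0.012 belong to the plain differences of 3.29 and -2.38 and do not test the bounds. The probe passed through the 1 dpi arrays alone, so its p-values are no support for a direction. With normexp and quantile normalization neither difference was called. Col4a5, its partner chain, rose by 1.20 at 1 dpi on 1 probe, while the other, at -0.14, was not called. That call was lost without Ctrl replicate 1 or without 1 dpi replicate 1, with differences of 0.81 and 1.08.

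Type VIII collagen, a hexagonal network of vessel walls, rose through Col8a1. Its probe (A_52_P282058, mm9 chr16:57627033-57627092) read -2.77, -2.98 and -2.84 in Ctrl, 1.83, 1.07 and 1.38 at 1 dpi, and 1.90, 1.95 and 1.79 at 3 dpi. Each array after IR lay far above each Ctrl array, and the 1 dpi and 3 dpi arrays overlapped. The change was 4.29 ± 0.18 at 1 dpi and 4.75 ± 0.18 at 3 dpi (limma adjusted p = 2.2e-06 and 1.1e-06), or 19.6-fold and 26.8-fold, the highest of the network probes. Col8a2, the partner chain, was at least 2.33-fold higher at 3 dpi by a probe (A_52_P302544) that was well above background on those 3 arrays alone. That call was lost without Ctrl replicate 3 (limma adjusted p = 0.051). The other passing probe of Col8a2 (A_66_P134043) was not called, with 0.33 at 3 dpi, and it was well above background on no 1 dpi array, where its mean of -6.09 lay above that of -6.49 at 3 dpi. Col10a1, the collagen of hypertrophic cartilage, was not called at 1 dpi (-0.11) and rose at 3 dpi (1.25), a call lost with normexp under either scaling and with treat (lowest 0.77).

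Among the network probes none fell against Ctrl by limma, and 0 were lower at an unadjusted p under 0.05 by limma or by the methods' t-test. Split by network, basement membrane chains had 4 of 5 probes higher at 1 dpi and 2 at 3 dpi, and hexagonal chains 1 of 4 and 3. Of all probes tested 11.6% rose at 1 dpi and 6.58% at 3 dpi. The Col4a4 probe passed through the 1 dpi arrays alone, and both passing Col8a2 probes through those of 3 dpi. The split is therefore no support for a difference between networks. With normexp and the 75th percentile 4 of the 9 network probes rose at 1 dpi and 3 at 3 dpi, with normexp and quantile normalization 3 at each time, and without Ctrl replicate 1 the numbers were 4 and 5. Col4a3 and Col4a6 did not pass, with each of their probes well above background on 0 arrays.

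Type VI collagen, the beaded filament that anchors cells to the matrix, rose through its 3 main chains. Col6a1 (A_55_P2128153, mm9 chr10:76171538-76171597) read -3.05, -3.22 and -3.17 in Ctrl, -0.32, -0.75 and -0.49 at 1 dpi, and 0.93, 0.71 and 0.75 at 3 dpi. Its change was 2.63 ± 0.12 at 1 dpi and 3.94 ± 0.12 at 3 dpi (limma adjusted p = 3.6e-06 and 4.8e-07), 6.17-fold and 15.3-fold, with no overlap between the groups. Col6a2 (A_51_P279639, mm9 chr10:76058931-76058990) read -5.24, -5.25 and -4.75 in Ctrl, -3.02, -3.56 and -3.54 at 1 dpi, and -2.66, -3.04 and -2.88 at 3 dpi. Its Ctrl arrays lay below the others, while those of 1 and 3 dpi overlapped. The change was 1.71 ± 0.20 and 2.22 ± 0.20 (limma adjusted p = 2.9e-04 and 1.0e-04), and the earlier call was lost with normexp and quantile normalization (0.67). Its other passing probes were dim in Ctrl. Probe A_52_P362757 was at least 2.02-fold and 2.57-fold higher at 1 and 3 dpi, and probe A_55_P2733787 at least 2.17-fold higher at 3 dpi.

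Col6a3, the largest chain of type VI collagen, had 3 passing probes that moved differently. The probe nearest the 3′ end (A_52_P479262, mm9 chr1:92663663-92663722) read -4.51, -4.31 and -4.47 in Ctrl, -1.79, -1.91 and -1.58 at 1 dpi, and -0.56, -0.67 and -0.53 at 3 dpi. It changed by 2.67 ± 0.10 and 3.84 ± 0.10 (limma adjusted p = 1.7e-06 and 3.2e-07), higher on each array after IR. Probe A_66_P127268 (mm9 chr1:92689602-92690594, across introns) read -4.72, -4.55 and -4.35 in Ctrl, -1.80, -2.01 and -2.12 at 1 dpi, and -4.26, -4.07 and -3.90 at 3 dpi. This probe was high at 1 dpi and back near Ctrl at 3 dpi, with changes of 2.56 ± 0.14 and 0.46 ± 0.14, and it fell by 2.10 from 1 to 3 dpi (limma adjusted p = 4.2e-05). Probe A_55_P2719394, which lies inside the span of that probe, was not called, with 0.20 and 0.72.

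Col6a4, a chain that can replace the α3 chain, rose by 1.08 and 1.13. Neither call was made without Ctrl replicate 1, with differences of 0.74 and 0.78, nor the earlier without 1 dpi replicate 3 (0.99) nor the later without 3 dpi replicate 1 or 2 (1.06 and 1.07). No beaded probe fell against Ctrl by limma, and 0 were lower at an unadjusted p under 0.05 by limma or by the methods' t-test. For normexp and the 75th percentile 4 of 8 beaded probes rose at 1 dpi and 3 at 3 dpi, for normexp and quantile normalization 3 at each time, and without Ctrl replicate 1 5 rose at each time. Col6a5 and Col6a6, relatives of the α3 chain, did not pass.

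Among the FACIT chains, Col12a1 and Col22a1 rose at both times. Col12a1, a collagen of tendon and other dense tissue, had its brighter probe (A_55_P2062469, mm9 chr9:79446895-79446954) at -7.30, -6.85 and -6.81 in Ctrl, -2.91, -3.81 and -2.90 at 1 dpi, and -2.03, -2.09 and -2.03 at 3 dpi. The Ctrl value rests on 1 array well above background of 3, and the arrays after IR lay far above it. The change was 3.78 ± 0.25 and 4.93 ± 0.25 (limma adjusted p = 2.1e-05 and 5.2e-06), the highest of the FACIT probes, and 1.23 and 2.22 with normexp and quantile normalization. Its other probe (A_55_P2800119) was called at 1 dpi (1.46) and not at 3 dpi (1.18). The former call was lost without Ctrl replicate 1, with a difference of 0.77, and without any of 6 other arrays. Col22a1, a collagen of tissue junctions, rose by 1.85 and 2.74 on probe A_51_P145010, with no call at 1 dpi under normexp and quantile normalization (0.93), while probe A_66_P116558, at 0.74 and 0.06, was not called.

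Col16a1, a collagen found near fibrils of skin and cartilage, was called at 1 dpi by 1 probe (1.07) and not at 3 dpi. This call was lost without Ctrl replicate 1, Ctrl replicate 2 or 1 dpi replicate 2, with differences of 0.97, 0.92 and 0.96. No FACIT probe fell against Ctrl by limma, and 0 were lower at an unadjusted p under 0.05 by limma or by the methods' t-test. Col9a2, Col9a3, Col14a1, Col19a1 and Col20a1 had no called probe in any comparison, with changes between -0.04 and 0.77 at 1 dpi and between 0.01 and 0.58 at 3 dpi. For normexp and the 75th percentile 2 of the 13 FACIT probes rose at each time, for normexp and quantile normalization 1 at 1 dpi and 2 at 3 dpi, and without Ctrl replicate 1 it was 2 at each time.

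The remaining chains include transmembrane, multiplexin and anchoring-fibril collagens, and 2 of their 13 probes rose at each time (15.4%), where 11.6% and 6.58% of all probes did. Col18a1, the basement-membrane chain that carries endostatin, read -3.31, -3.32 and -3.39 in Ctrl, -0.62, -0.71 and -0.81 at 1 dpi, and -1.06, -1.45 and -1.30 at 3 dpi (A_51_P191700, mm9 chr10:76515820-76515879). It changed by 2.63 ± 0.11 and 2.07 ± 0.11 (limma adjusted p = 2.0e-06 and 5.4e-06), with each array at 3 dpi between those of Ctrl and 1 dpi. Col13a1, a transmembrane collagen of cell contacts, rose by 1.43 at each time on 1 of its 3 probes. Its Ctrl arrays read -6.03, -4.24 and -4.46, and without Ctrl replicate 1, the lowest, the differences were 0.87 and 0.87 and neither was called. Without any single array at 1 dpi neither call was made, nor the later without any single array at 3 dpi, with differences from 1.31 to 1.58. Without Ctrl replicate 1, 1 of the 13 other probes rose at each time, as with normexp and quantile normalization, and with normexp and the 75th percentile 2 rose at 1 dpi and 1 at 3 dpi.

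Col26a1, a little-studied collagen, held the 1 probe that fell against Ctrl. Probe A_51_P435380 (mm9 chr5:137217650-137217709) read -7.23, -6.41 and -7.41 in Ctrl, -7.83, -8.16 and -8.21 at 1 dpi, and -6.10, -6.05 and -6.35 at 3 dpi. It was well above background on 1 Ctrl array, 0 arrays at 1 dpi and 3 at 3 dpi. The difference of -1.05 at 1 dpi (limma adjusted p = 0.0092) gives no fold, since its bound was under 1. It was not called without Ctrl replicate 2 (-0.75) or 1 dpi replicate 3 (-0.98), and with normexp and the 75th percentile it was 0.77. The other probes of Col26a1 were not called, at 0.80 and 0.69. Col7a1, Col15a1, Col17a1, Col23a1 and Col25a1 had no called probe in any comparison, with changes between 0.33 and 1.17 at 1 dpi and between 0.10 and 0.64 at 3 dpi. The highest at 1 dpi was that of Col15a1, with Ctrl arrays at -7.73, -5.44 and -5.94, so it depends on Ctrl replicate 1. No probe of these remaining chains fell at 3 dpi by limma, and 0 were lower at an unadjusted p under 0.05 by limma or by the methods' t-test.

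From 1 to 3 dpi some collagen probes rose and 2 fell. Of the 65 probes, 15 from 13 chains were higher at 3 dpi than at 1 dpi and 2 were lower, where 3.75% of all probes were higher and 5.03% lower. Of the 15, 5 passed through the 3 dpi arrays alone (a probe each of Col1a2, Col6a2, Col8a2, Col26a1 and Col27a1), and the lower Col4a4 probe passed through the 1 dpi arrays alone, so these counts are no support for a direction. Among the 39 probes well above background on every array 7 were higher and 1 lower, with a median of -0.01, where 831 of 36500 such probes were higher and 1811 lower. The main chains of the interstitial matrix were among those that rose further, with Col3a1 at 2.02 ± 0.19, Col6a1 at 1.31 ± 0.12 and Col1a2 at 1.14 ± 0.10 (limma adjusted p = 1.9e-04, 1.6e-04 and 1.2e-04). Col1a1 differed by 0.93 ± 0.07, which passed the adjusted p (6.6e-05 by limma) and was under 2-fold. The basement membrane chains Col4a1 and Col4a2 differed by 0.30 and 0.01 and were not called, nor was Col18a1 at -0.56. Those that were lower at 3 dpi were the probes of Col4a4 and Col6a3 described above.

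By class, 7 fibrillar, 2 network, 2 FACIT, 3 beaded and 1 of the other probes were higher at 3 dpi than at 1 dpi, and the lower ones were 1 network and 1 beaded probe. At an unadjusted p under 0.05 limma had 4 fibrillar, 6 FACIT and 4 other probes lower, and the methods' t-test 3, 5 and 4. The class medians were 0.83 for fibrillar, 0.30 for network, -0.33 for FACIT, 0.51 for beaded and -0.53 for other chains, or 0.96, 0.43, -0.20, 0.65 and -0.40 relative to all probes, and with normexp background correction and the 75th percentile the fibrillar, network and beaded medians turned to -0.21, -0.49 and -0.38. Relative to all probes these were 0.21, -0.06 and 0.04, and with normexp and quantile normalization the medians were 0.44, 0.14 and 0.33. With dim probes at their bound the medians were 0.69, 0.30, -0.33, 0.43 and -0.53. With normexp and the 75th percentile 3 collagen probes were called higher at 3 dpi than at 1 dpi, in place of 15, and with normexp and quantile normalization 4. The share of calls that were higher moved with the scaling and the background correction. Of all calls at 1 dpi, 79.28% were higher, against 45.19% with median scaling, 50.99% with quantile normalization, 66.73% with normexp and quantile normalization, 49.83% in the deposited table and 56.36% relative to the median of all probes, while it was 88.32% with normexp and the 75th percentile and 83.19% with no filter. At 3 dpi 78.02% were higher, against 67.82% with quantile normalization and 66.84% in the deposited table. Between the times 42.71% were higher, against 66.29%, 61.51%, 20.76% with normexp and the 75th percentile, 62.64% in the deposited table and 57.74% relative to the median.

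Several calls between the times hung on single arrays. Without 1 dpi replicate 2, 9 probes were higher at 3 dpi in place of 15, and Col12a1 (1.15 with all arrays) had a difference of 0.85 and was not called. Col2a1 at 1.04 was not called without 1 dpi replicate 2 (0.91) or 3 dpi replicate 3 (0.83). Col1a2 by its dimmest probe (A_55_P2715501), at 1.22, was not called without 1 dpi replicate 2 (0.87) or 3 dpi replicate 1 (1.08). The call of Col9a1 at 1.77 was lost without any of 4 arrays, with differences from 1.26 to 1.86. Col27a1 and Col8a2 were called by probes well above background on no 1 dpi array, with no fold for Col27a1 and at least 1.31-fold for Col8a2. Those calls were lost without any of 6 and 8 arrays, with limma adjusted p from 0.055 to 0.124 and from 0.051 to 0.137. The smallest p that an exact permutation test of 3 arrays against 3 can give is 0.10, so no permutation test was used for single probes.

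The 5 chains that did not pass were Col4a3, Col4a6, Col6a5, Col6a6 and Col28a1, and 14 of the passing chains were never called. Probes just outside the filter missed it by 1 array: Col6a6 (A_51_P105847) was well above background on 1 Ctrl, 2 1 dpi and 2 3 dpi arrays, Col6a5 (A_66_P102817) on 0, 2 and 1, Col6a4 (A_65_P11326) on 1, 0 and 2, Col24a1 (A_51_P408430) on 0, 0 and 2, and Col1a2 (A_55_P2610621) on 2, 0 and 1. The first of them read -6.61, -6.58 and -7.13 in Ctrl, -6.44, -5.34 and -5.18 at 1 dpi, and -6.40, -6.62 and -6.93 at 3 dpi. Just inside, Col3a1 (A_55_P2717459) read -6.22, -6.49 and -6.49 at 3 dpi with 0, 0 and 3 arrays, and Col4a4 (A_66_P102765) passed with 0, 3 and 0. These values are given with no test.

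Chains with several probes showed how much a collagen value depends on its probe. There were 19 chains with 45 passing probes, and the changes of 1 chain's probes differed by more than 1 in 11 chains at 1 dpi, 10 at 3 dpi and 10 between the times. Without probes well above background on no array of a group compared, it was 9 of 15, 8 of 15 and 6 of 16 chains. In 15, 14 and 13 of the 19 chains the highest change lay on the probe nearest the 3′ end. These counts include dim probes, and no such share was computed over other genes, so they are a description alone. Col1a1 ranged from 0.85 to 2.87 at 1 dpi and from 0.47 to 3.43 at 3 dpi, where the lowest probe was not called. That probe (A_55_P2717469) read -7.44, -5.26 and -5.59 in Ctrl, so its values depend on Ctrl replicate 1. Each of its 3 dpi arrays lay below Ctrl replicates 2 and 3. Col1a2 ranged from 1.24 to 2.36 and from 2.46 to 3.50 and each of its 3 passing probes rose at both times, though the dimmest (A_55_P2715501) was not called at 1 dpi without 1 dpi replicate 1 (0.92). Col5a2 ranged from 0.74 to 1.86 and from 1.59 to 2.83, and Col11a1 from 1.28 to 2.75 at 3 dpi.

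Outside the fibrillar class the ranges were as wide. Col12a1 spanned 1.46 to 3.78 at 1 dpi and 1.18 to 4.93 at 3 dpi, Col22a1 0.74 to 1.85 and 0.06 to 2.74, and Col6a3 0.20 to 2.67 and 0.46 to 3.84. Col13a1 spanned 0.33 to 1.43 and -0.11 to 1.43. No range is given for Col3a1, Col6a2, Col8a2 and Col26a1, since 1 end of it was a probe on no array well above background in a group. Probes of Col9a1 (-1.004 and 0.99) and Col4a5 (-0.14 and 1.20) had opposite signs at 1 dpi. Between the times Col5a3, a fibrillar chain, spanned -0.54 to 0.51. By the accession of the probe, 23 of 52 RefSeq probes rose at 1 dpi and 23 at 3 dpi, against 4 and 6 of 11 probes with an Ensembl transcript.

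**Figure D3:**
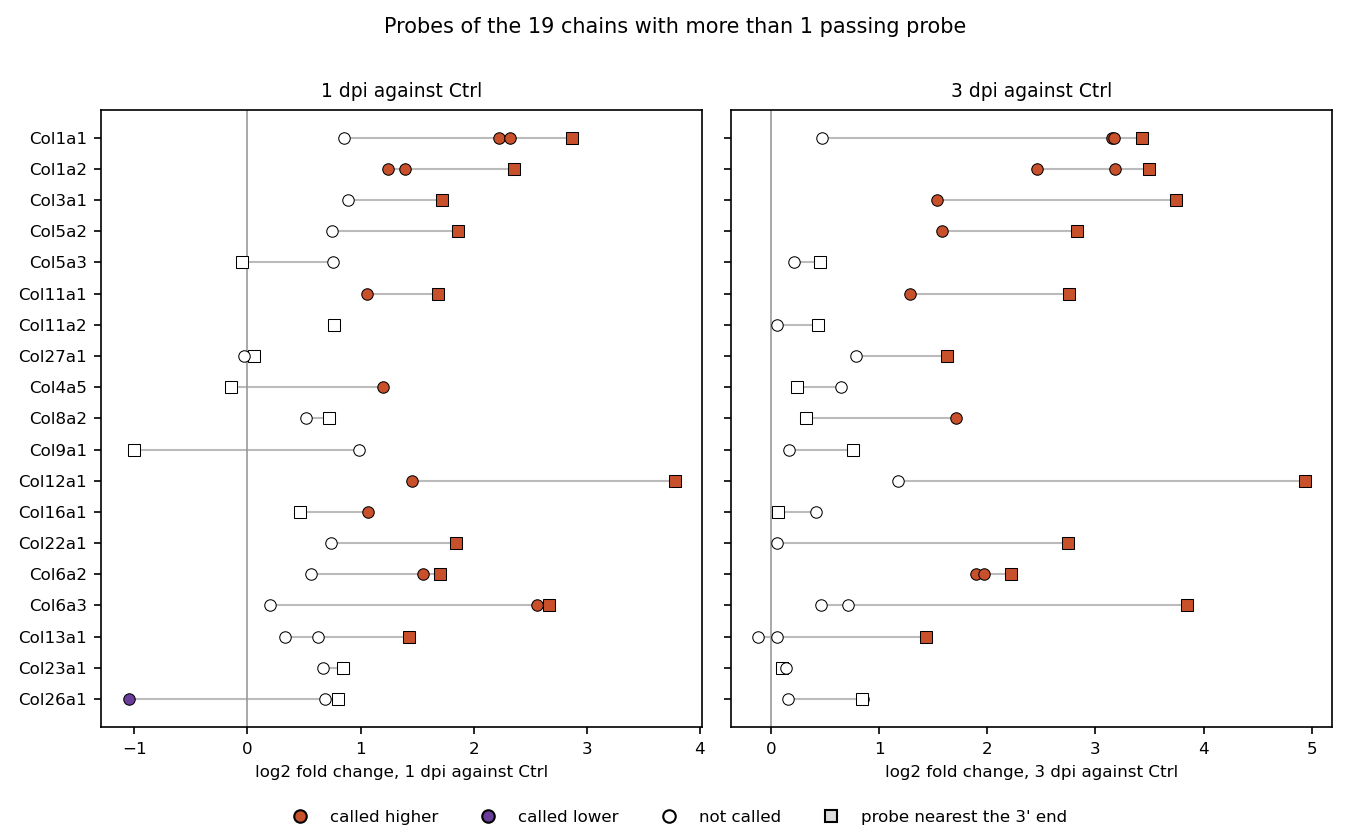
Log2 change of each passing probe (horizontal axis) at 1 dpi and 3 dpi against Ctrl for the 19 chains with several passing probes, 1 line a chain, with squares for the probe nearest the 3′ end. The probes of Col6a3 at 3 dpi lay between 0.46 and 3.84, and those of Col1a2 between 2.46 and 3.50.

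The probe sequences show what letters of a chain were read, and those printed here carry the glycine codons of a triple helix without a gap, with that of Col8a1 for contrast. In a triple helix a glycine codon comes after every 2 others, and each glycine codon starts with guanine and guanine. Of the 91 collagen probes, 4 carried that repeat without a gap along their 60 bases (4.4%), against 9 of 56605 probes with a sequence (0.0159%). Capitals mark the glycine codons of the repeat.
Col5a3 A_52_P503796: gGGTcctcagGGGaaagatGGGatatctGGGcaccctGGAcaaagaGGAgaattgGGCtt
Col11a2 A_52_P563285: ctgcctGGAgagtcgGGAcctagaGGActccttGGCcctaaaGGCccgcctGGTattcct
Col6a3 A_66_P127268: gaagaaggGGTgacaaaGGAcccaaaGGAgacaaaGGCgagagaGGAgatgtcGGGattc
Col15a1 A_55_P2060386: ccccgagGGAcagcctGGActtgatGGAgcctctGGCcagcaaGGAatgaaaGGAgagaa
Col8a1 A_52_P282058: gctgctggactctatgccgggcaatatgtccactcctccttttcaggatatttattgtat

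Of those 4, Col6a3 A_66_P127268 was called, higher at 1 dpi than in Ctrl and lower at 3 dpi than at 1 dpi. Other probes held most of the repeat, with 5 of 6 glycine codons for Col22a1 A_66_P116558, 5 of 7 for Col16a1 A_55_P2056735, which was called at 1 dpi, 4 of 6 for Col13a1 A_52_P147487 and 4 of 7 for Col14a1 A_55_P2159522. No probe was placed on a protein. The probes of Col5a3, Col11a2 and Col15a1 had changes of 0.76, 0.77 and 1.17 at 1 dpi and 0.22, 0.06 and 0.40 at 3 dpi, with no call. That of Col15a1 read -7.73, -5.44 and -5.94 in Ctrl, so its changes depend on Ctrl replicate 1. Its mean of -5.97 at 3 dpi lay below Ctrl replicates 2 and 3. The probe of Col8a1, which rose at both times, has no full repeat. The coordinates of 12 collagen probes span more than their 60 bases, 7 of them passing, as where a probe joins exons, among them those of Col5a3 (mm9 chr9:20590066-20590795), Col11a2 (mm9 chr17:34189287-34189453) and Col6a3. The probe sequences were not searched for matches in other collagen genes.

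Chains that rose together include neighbours on the chromosome. Among the 44 chains there were 8 pairs of adjacent collagen genes, and in 4 both passed. Col4a1 and Col4a2 had 2.02 and 1.73 at 1 dpi and 2.32 and 1.74 at 3 dpi. Col3a1 and Col5a2 had 1.72 and 1.86, then 3.74 and 2.83, and Col6a2 and Col6a1 had 1.71 and 2.63, then 2.22 and 3.94. Col9a1 and Col19a1 had 0.99 and 0.65, then 0.17 and 0.17, with no call on these probes. That of Col9a1 read -5.92, -4.68 and -4.69 in Ctrl, so its changes depend on Ctrl replicate 1. Each of its 3 dpi arrays lay below Ctrl replicates 2 and 3.

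Promoters of chains of types I, III, IV and VIII that rose at both times are printed to show the sequence at their starts, from RefSeq on GRCm38.p6, 250 bases before to 50 after the start. A window was found for 35 of the 44 chains and for 31 of the 39 passing chains, and among chains that rose at both times Col1a1, Col5a2, Col12a1 and Col22a1 are named without one. Windows of Col6a1, Col6a2, Col6a3, Col6a4, Col11a1, Col13a1 and Col18a1, which also rose at both times, were searched and are not printed, and that of Col6a3 and 1 of 2 of Col18a1 held no match. The motifs searched on both strands were the CCAAT box, the TATA box as TATAAA, the GC box as GGGCGG and the AP-1 motif as TGANTCA, and none of them is contained in another. Capitals mark a match to CCAAT, to TATAAA or to GGGCGG, or to the reverse complement of 1 of them.
Col1a2 chr6:4505368-4505667 plus strand: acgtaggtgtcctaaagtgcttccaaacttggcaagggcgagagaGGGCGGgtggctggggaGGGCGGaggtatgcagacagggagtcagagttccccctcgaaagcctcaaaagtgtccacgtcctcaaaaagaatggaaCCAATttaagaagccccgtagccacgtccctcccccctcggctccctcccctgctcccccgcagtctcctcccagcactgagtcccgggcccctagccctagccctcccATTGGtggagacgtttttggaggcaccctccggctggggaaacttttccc
Col3a1 chr1:45311288-45311587 plus strand: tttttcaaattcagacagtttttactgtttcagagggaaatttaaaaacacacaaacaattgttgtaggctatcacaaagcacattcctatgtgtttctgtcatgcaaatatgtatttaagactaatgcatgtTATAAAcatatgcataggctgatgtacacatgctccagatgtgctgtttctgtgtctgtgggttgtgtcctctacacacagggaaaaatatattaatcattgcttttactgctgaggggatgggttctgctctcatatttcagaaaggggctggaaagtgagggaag
Col4a1 chr8:11312777-11313076 minus strand: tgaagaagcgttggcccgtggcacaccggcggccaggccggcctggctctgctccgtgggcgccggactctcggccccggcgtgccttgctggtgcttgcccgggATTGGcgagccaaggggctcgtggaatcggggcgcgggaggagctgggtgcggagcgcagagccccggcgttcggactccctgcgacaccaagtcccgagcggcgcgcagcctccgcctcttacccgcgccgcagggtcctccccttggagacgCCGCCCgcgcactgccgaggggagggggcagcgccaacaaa
Col4a2 chr8:11312555-11312854 plus strand: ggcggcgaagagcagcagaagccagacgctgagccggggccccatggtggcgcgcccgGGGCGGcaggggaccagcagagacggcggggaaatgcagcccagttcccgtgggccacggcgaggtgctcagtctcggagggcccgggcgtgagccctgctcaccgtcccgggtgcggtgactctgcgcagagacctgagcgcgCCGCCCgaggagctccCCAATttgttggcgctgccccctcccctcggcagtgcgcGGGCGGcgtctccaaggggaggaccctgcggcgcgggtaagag
Col8a1 chr16:57754688-57754987 minus strand: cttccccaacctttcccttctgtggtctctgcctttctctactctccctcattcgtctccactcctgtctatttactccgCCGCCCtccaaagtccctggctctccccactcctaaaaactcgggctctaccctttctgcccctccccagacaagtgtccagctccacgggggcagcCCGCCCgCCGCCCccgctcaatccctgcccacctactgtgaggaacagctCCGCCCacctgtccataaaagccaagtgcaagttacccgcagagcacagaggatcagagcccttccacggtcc

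The windows of Col4a1 and Col4a2, which are read in opposite directions, share 78 bases. Of 34 windows of passing chains, 13 held CCAAT (38.2%), 5 TATAAA (14.7%), 20 GGGCGG (58.8%) and 1 TGANTCA (2.94%). Among all 32851 windows of the table the shares were 37.4%, 13.6%, 35.7% and 7.81%. A match is a description of letters in the window, not a binding site, and no test was made.

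Enzymes that make and process collagen moved with it in part. In this and the following lists each gene is read from its brightest passing probe. Of all 29210 gene names read so, 12.4% rose and 2.86% fell at 1 dpi and 7.04% rose and 1.81% fell at 3 dpi. In a fit of these probes alone, 1164 of the 29210 were higher and 1409 lower at 3 dpi than at 1 dpi. Of the 29 genes of the list 27 passed, and 10 rose and 1 fell at 1 dpi, while 11 rose at 3 dpi. Their medians were 0.62 and 0.79. Adamts2, which removes the N-terminal propeptide, changed by 3.04 and 4.004, Loxl1, a cross-linking oxidase, by 2.85 and 4.02, Lox, another such oxidase, by 2.64 and 3.63, and Serpinh1, the collagen chaperone HSP47, by 3.30 and 3.62. Adamts3, a relative of Adamts2, fell at 1 dpi, with -1.21, while its other probe was at 0.09. The probes of Adamts2 ranged from 1.12 to 3.04 and from 1.07 to 4.004, and those of Serpinh1 from 1.80 to 3.30 and from 1.28 to 3.62. The brightest gene of the list, P4hb, a subunit of prolyl hydroxylase, was not called, with 0.43 and 0.28. None fell at 3 dpi by limma, with 1 lower at an unadjusted p under 0.05 by limma and 1 by the methods' t-test.

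Of 12 collagen receptors, all of which passed, 6 rose at 1 dpi, and 5 rose and 1 fell at 3 dpi. Itga1, the α1 integrin chain, rose by 4.55 at 1 dpi on its brightest probe and was not called at 3 dpi (1.25), and that probe fell by 3.30 between the times. The 5 passing probes of Itga1 spanned -0.77 to 4.55 at 1 dpi, 0.84 to 1.73 at 3 dpi and -3.30 to 1.81 between the times, on both sides of 0 in the first and the last. Itga11, an integrin chain of fibroblasts, changed by 3.01 and 4.40, Ddr2, a receptor kinase for fibrillar collagen, by 2.14 and 3.19, and Cd36, a scavenger receptor that binds collagen, by 2.50 and 2.78. The gene that fell was Adgrg1, a receptor for type III collagen and the brightest of the list, with -0.81 and -1.65. Gp6, the platelet receptor for collagen, was not called, with -0.01 and 0.95. The other probe of Itga11 was at 0.29 and 0.26, and the 3 probes of Ddr2 spanned 1.47 to 2.14 and 0.68 to 3.19. The list's medians were 1.16 and 1.31, and 0.68 and 0.85 without Ctrl replicate 1.

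Genes of collagen breakdown and of the small proteoglycans that bind fibrils were called in part. Of 10 breakdown genes, 6 rose at each time, with medians of 1.00 and 1.54. The brightest of them, Mmp8, was not called at either time, with 0.77 at 1 dpi. Mmp13, a collagenase, changed by 2.15 and 4.25, Fap, a fibroblast protease, by 2.33 and 4.01, Mmp2, a gelatinase, by 3.83 and 2.68, and Timp1, an inhibitor of such proteases, by 2.77 and 1.61. Of 10 proteoglycans 9 passed, and 7 were called higher at each time and 7 between the times, with medians of 1.49 and 3.65 against Ctrl. Fmod (fibromodulin) was not called, with 0.95 and 0.68. Bgn (biglycan) rose at 1 dpi (1.39) and was not called at 3 dpi (0.70) on its brightest probe, while its other passing probe was at 2.91 and 3.56. Among the proteoglycans Aspn (asporin) was well above background on no Ctrl or 1 dpi array, so it has no fold at 1 dpi. At 3 dpi it was at least 2.24-fold higher than in Ctrl. Ogn (osteoglycin) changed by 2.18 and 4.91, Lum (lumican) by 1.49 and 3.84, Prelp by 2.10 and 3.67, and Podn (podocan) by 1.89 and 3.65.

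Markers of other marrow cells moved in the same samples, and their part in the collagen changes was not tested. The paper's methods enriched mMKs by the surface proteins CD41 and then CD42d. Of 9 markers of CXCL12-abundant stromal cells, 5 rose at each time and 4 between the times, with medians of 1.39, 3.50 and 0.79. Cxcl12, the chemokine of these cells and the brightest of the list, had differences of 2.71 and 3.50, and Lepr, their leptin receptor, 1.39 and 0.42 on its brightest probe. The 5 passing probes of Lepr spanned 0.71 to 2.10 at 1 dpi, 0.42 to 4.07 at 3 dpi and -0.97 to 3.36 between the times. The signals of the list summed to 5.952, 5.588 and 5.718 in Ctrl, 26.99, 23.55 and 25.59 at 1 dpi, and 45.86, 42.78 and 46.33 at 3 dpi. Most of each sum was the signal of Cxcl12. Each array after IR had a higher sum than each Ctrl array, and each at 3 dpi a higher sum than each at 1 dpi.

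Bone-forming and cartilage markers were read in the same way. Of 7 osteoblast markers, 4 were called higher at 1 dpi and 5 at 3 dpi. Bglap2, an osteocalcin gene and the brightest of them, had differences of 2.79 and 3.97, Bglap 2.54 and 3.75, and Sp7, the osteoblast factor osterix, 0.88 and 0.64 without a call. The other probe of Bglap was at 0.96 and 1.11. Of those called at 1 dpi, Dmp1 was well above background on 1 Ctrl array and no 1 dpi array and has no fold. Their signals summed to 1.34, 1.833 and 1.998 in Ctrl, 8.217, 7.177 and 7.124 at 1 dpi, and 16, 14.61 and 16.07 at 3 dpi. Of 7 chondrocyte markers 6 passed, and 1 rose at 1 dpi and 2 at 3 dpi. Comp, a cartilage matrix protein and the brightest, had differences of -0.13 and 0.98, Acan (aggrecan) 0.42 and 1.55, and Sox9, the cartilage factor, 0.83 and 0.29, with its other probe at 0.73 and 1.78. The cartilage sums were 0.2864, 0.2395 and 0.2332 in Ctrl, 0.5466, 0.5202 and 0.4797 at 1 dpi, and 0.5353, 0.4706 and 0.6186 at 3 dpi.

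Of 7 fibroblast markers 6 passed and 2, Lum and Dcn, rose at each time. Dpt, a fibroblast matrix protein and the first of the list, did not pass, and Pi16, the brightest, was not called, with 0.40 and 0.02. The fibroblast sums were 11.98, 12.3 and 12.37 in Ctrl, 16.61, 17.08 and 15.79 at 1 dpi, and 17.87, 14.17 and 13.81 at 3 dpi. Of 8 endothelial markers, 3 rose at 1 dpi and 5 at 3 dpi. Cdh5, the cadherin of vessel walls, had differences of 1.74 and 2.40, Pecam1, which platelets and MKs also carry, 0.11 and 0.02, and Stab2, a sinusoidal receptor and the brightest, 0.53 and 2.07. Their sums were 2.831, 2.534 and 2.598 in Ctrl, 4.433, 4.071 and 4.254 at 1 dpi, and 8.752, 7.28 and 7.563 at 3 dpi.

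Of 6 pericyte and smooth muscle markers, 4 rose at 1 dpi and 2 at 3 dpi, and 2 were lower at 3 than at 1 dpi. Mcam, an adhesion molecule of vessel walls and the brightest, had differences of 1.56 and 0.24, Acta2, smooth muscle actin, 0.28 and -0.03, and Myh11, its myosin, 0.69 and 0.12. Dimmer probes of Acta2 had differences of up to 2.91 and 1.54, and of Myh11 up to 1.77 at 1 dpi. Their sums were 47.59, 50.04 and 50.25 in Ctrl, 109.9, 106.5 and 105.5 at 1 dpi, and 51.86, 56.34 and 54.98 at 3 dpi. Of 9 macrophage markers, 4 rose and 1 fell at 1 dpi and 7 rose at 3 dpi. Csf1r, the macrophage growth factor receptor and the brightest, had differences of 0.40 and 1.05, and Adgre1 (F4/80) -0.21 and 0.50. Over the list the medians were 0.40 and 2.19. The macrophage sums were 44.62, 39.12 and 37.17 in Ctrl, 66.03, 60.67 and 63.51 at 1 dpi, and 116.9, 113.4 and 110 at 3 dpi.

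Blood cell markers went several ways. Of 8 neutrophil markers 2 rose at 1 dpi, and by limma 0 were called at 3 dpi, with 0 higher and 1 lower at an unadjusted p under 0.05 by limma and also by the methods' t-test. Mpo, the granule peroxidase and the brightest, had differences of 0.92 and -0.00, Ly6g -0.03 and -0.64, and S100a8 1.14 and 0.17. Their sums were 997, 1066 and 1054 in Ctrl, 1798, 1670 and 1642 at 1 dpi, and 1121, 997 and 1058 at 3 dpi. Of 7 B cell markers 6 fell at each time, with list medians of -3.74 and -3.17. Cd79b, a receptor chain and the brightest, was at -1.28 and -1.52, and Cd79a, its partner chain, at -1.53 and -2.22. The B cell sums were 27.93, 26.49 and 27.26 in Ctrl, 5.774, 5.531 and 5.698 at 1 dpi, and 5.44, 5.285 and 5.273 at 3 dpi.

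Of 7 erythroid markers, 2 rose and 5 fell at 1 dpi and 5 fell at 3 dpi, with medians of -1.28 and -1.69. Hba-a1, an α-globin gene and the brightest, rose by 1.34 at 1 dpi and was at -1.48 at 3 dpi, a fall. The erythroid sums were 106.1, 86.52 and 89.49 in Ctrl, 245.2, 200.5 and 197.6 at 1 dpi, and 35.3, 35.68 and 33.07 at 3 dpi.

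Without Ctrl replicate 1 the counts higher at 1 and 3 dpi were 10 and 10 for synthesis genes, 5 and 5 for receptors, 5 and 6 for breakdown genes, 7 and 7 for proteoglycans, 3 and 5 for osteoblast, 1 and 3 for chondrocyte and 1 and 0 for neutrophil markers. The erythroid markers then had 4 lower at 1 dpi. The stromal, fibroblast, endothelial, pericyte, macrophage and B cell counts against Ctrl were the same without it.

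The scaling moved several of these lists. No neutrophil marker rose at 1 dpi with median scaling, with quantile normalization or with normexp and quantile normalization, and 1 rose with normexp and the 75th percentile, in place of 2. With median scaling 1 endothelial marker rose at 1 dpi in place of 3, 1 MK marker was lower at 1 dpi and 2 were higher at 3 dpi than at 1 dpi. With normexp and quantile normalization 4 proteoglycans, 3 stromal, 2 pericyte and 1 fibroblast marker rose at 1 dpi, and 3 receptors and 1 chondrocyte marker at 3 dpi. The medians were then 0.34 and 0.38 for synthesis genes, 0.30 and 0.86 for receptors, 0.65 and 1.87 for proteoglycans, and 0.84 and 2.15 for stromal markers. With normexp and the 75th percentile 1 erythroid marker was higher and 3 were lower at 1 dpi.

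**Figure D4:**
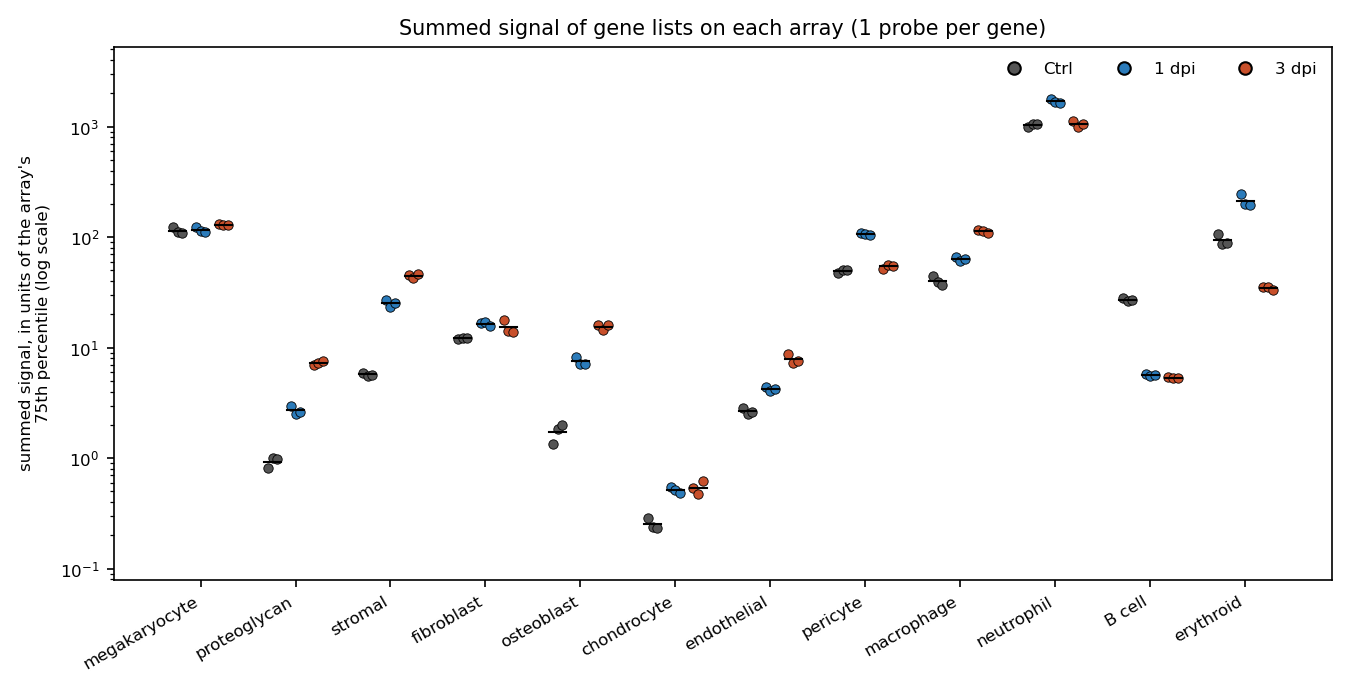
Summed signal of each marker list and of the proteoglycans on the 9 arrays (linear signal in units of the array's 75th percentile, log axis), points for arrays coloured by group. The stromal sum lay between 5.588 and 5.952 in Ctrl and between 42.78 and 46.33 at 3 dpi, while the MK sum lay between 109.8 and 131.1 on the 9 arrays.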

How the data were processed

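Total RNA of sorted mMKs was labelled with Cy3 and hybridised to Agilent 1-colour arrays, 9 arrays in 3 groups of 3. The paper's methods name an Affymetrix chip, while the files are Agilent Feature Extraction 10.7.1.1 text files with mm9 coordinates. Per the file headers these deposited files hold processed signal, an intensity on a linear scale. The authors also deposited a table in log2, which holds processed intensity after quantile normalization. Its column medians were 5.841, 5.84 and 5.835 in Ctrl, 5.797, 5.801 and 5.794 at 1 dpi, and 5.859, 5.861 and 5.873 at 3 dpi over 27275 names. Over 44 collagen chains the largest level difference between that table and the quantile-normalized probe was 0.0062. The number of columns of values left unused was 0.

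Processed signals were taken to log2, averaged over the spots of a probe without outlier spots (62976 spots an array and 56605 probes, of which 20 were left out because on some array each of their spots was an outlier) and scaled to the 75th percentile of the array, which was 10.03, 10.62 and 10.66 in Ctrl, 9.33, 9.45 and 9.43 at 1 dpi, and 10.37, 10.55 and 10.53 at 3 dpi. No spot was saturated. Probes well above background on the 3 arrays of at least 1 group were kept. Groups were compared with moderated t statistics in limma 3.58.1 in R 4.3.3 with the package data.table (version 1.17.8), with p-values adjusted over the 44300 probes tested. Figures were drawn with Python 3.11.15 and matplotlib 3.10.9. The scripts were tested on simulated data.

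Alternatives were other scalings and background corrections, filters, summaries by gene, call rules, the methods' t-test, the deposited table and leaving out each array. Values relative to the median of all probes, RefSeq probes alone, class medians under other scalings and chains without dim probes were chosen after seeing the data. The members and lists were chosen with earlier results of these data known. Named with 9 values were the probe with the highest rise in each class, the probes that fell and the brightest probe of the main chains of types I, III, IV, VI and VIII. For related lists up to 4 genes with the highest change were named, and for marker lists the brightest and the first 2. Beside this rule, 9 values of Col5a1 and of a Col6a6 probe just outside the filter are given, and Adamts3, P4hb, Adgrg1, Gp6, Mmp8, Fmod, Bgn, Aspn and Dmp1 are named, chosen after seeing the data. For 2 of the marker lists a gene that this rule would name is not reported here.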

Additional observations from a re-analysis of the deposited data

Results flagged for a closer look

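In all 17 collagen probes differed between 3 dpi and 1 dpi by the test of limma, given as log2 differences. Fibrillar probes higher at 3 dpi were Col3a1 (A_51_P515605) at 2.02, Col1a2 at 1.79 (A_55_P2610616), 1.22 (A_55_P2715501) and 1.14 (A_51_P182303), Col27a1 (A_52_P480088) at 1.57, Col11a1 (A_51_P459477) at 1.07 and Col2a1 (A_51_P317141) at 1.04. Network probes were Col10a1 (A_55_P2089520) at 1.36 and Col8a2 (A_52_P302544) at 1.19. Beaded probes were Col6a2 (A_55_P2733787) at 1.41, Col6a1 (A_55_P2128153) at 1.31 and Col6a3 (A_52_P479262) at 1.18. FACIT probes were Col9a1 (A_55_P2774925) at 1.77 and Col12a1 (A_55_P2062469) at 1.15, and Col26a1 (A_51_P435380) stood at 1.90. Lower at 3 dpi were Col6a3 (A_66_P127268) at -2.10 and Col4a4 (A_66_P102765) at -2.38. The probes of Col27a1, Col26a1, Col8a2 and that of Col6a2 were well above background on no 1 dpi array and that of Col4a4 on no 3 dpi array, so these values are differences from a dim group. As bounds Col8a2 was at least 1.31-fold and Col6a2 at least 1.22-fold higher, Col4a4 was at least 2.99-fold lower, and Col27a1 and Col26a1 have no fold. The call of Col1a2 A_55_P2715501 was lost without 1 dpi replicate 2 (0.87) or 3 dpi replicate 1 (1.08).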

How the results depend on the processing

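Of 74 calls of a collagen probe in a comparison, 33 held under every alternative run for them and 41 were lost or turned under at least 1. Some alternatives covered fewer calls, as with 51 of the 74 in the deposited table. In all, 19 were lost without 1 array. The cause was not tested.

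Counts are out of 65 probes, or out of 39 with the stricter background filter (well above background on all arrays), the brightest probe, the mean of probes or the deposited table, and 91 with no filter. In the deposited table the values of Col9a3, Col16a1, Col19a1, Col23a1 and Col25a1 followed probes that did not pass the filter. At 1 dpi, 27 collagen probes were higher. The count was 13 with normexp and quantile normalization, 16 of 39 with the stricter filter, 17 of 39 with the brightest probe of each gene, 16 of 39 with the mean of its probes, 15 of 39 in the deposited table, 31 of 91 with no filter and 41 with no minimum fold. Leaving out each array in turn gave 21 to 28. The 1 lower probe, of Col26a1, became 0 with normexp under either scaling, with the stricter background filter, the brightest probe, the mean of probes, a test against 1.5-fold (treat) and the adjusted methods' t-test. Leaving out arrays gave 0 to 2, with 0 without Ctrl replicate 2 or 1 dpi replicate 3 and 2 without Ctrl replicate 3.

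At 3 dpi, 29 collagen probes were higher. The count was 17 with normexp and the 75th percentile, 16 with normexp and quantile normalization, 17 of 39 with the stricter filter, 18 of 39 with the brightest probe, 19 of 39 with the mean of probes and 18 of 39 in the deposited table. Leaving out each array gave 25 to 30 higher and 0 to 0 lower.

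Between 3 dpi and 1 dpi, 15 collagen probes were higher. The count was 3 with normexp and the 75th percentile, 4 with normexp and quantile normalization, 7 of 39 with the stricter filter, 8 of 39 with the brightest probe, 6 of 39 with the mean of probes, 15 of 39 in the deposited table, 23 with no minimum fold, 8 with treat and 9 without 1 dpi replicate 2. Leaving out each array gave 9 to 15. The 2 lower probes became 1 with normexp and quantile normalization, the stricter filter, the brightest probe, the mean of probes, the deposited table, treat and the adjusted t-test, 8 of 91 with no filter and 12 with no minimum fold. Leaving out each array gave 2 to 2.

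Signs turned with normexp and the 75th percentile for Col26a1 A_51_P435380 at 1 dpi (0.77) and between the times (-0.64), and between the times for Col8a2 A_52_P302544 (-0.49), Col27a1 A_52_P480088 (-0.60), Col1a2 A_55_P2715501 (-0.22) and Col6a2 A_55_P2733787 (-0.54). With the mean of probes Col6a3 between the times was -0.14.

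With the replicate number as a block, 26 collagen probes were higher and 1 lower at 1 dpi, 29 and 0 at 3 dpi, and 13 and 2 between the times. Correlations of arrays with the same number, after the group means were removed, lay between -0.0929 and 0.1282. Those of arrays with different numbers lay between -0.1399 and 0.0905. With 3 arrays a group these values do not settle whether the numbers pair the samples. Without Ctrl replicate 1, 21 and 1, 26 and 0, and 14 and 2 were called.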
